A study of Rattus norvegicus with 9 samples.

Results

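The femoral transcriptome of Sprague-Dawley (SD) rats given Desertliving Cistanche herb was compared with that of all rats that had not received it. The treated group was the 3 libraries whose labels name the herb, of 9 libraries in all, and the untreated group pooled the other 6. The untreated libraries were 3 from normal SD rats (control) and 3 from ovariectomized rats. All 9 are labelled wild type, from femur, and were made from poly(A) RNA. Cistanche is a parasitic desert plant used in traditional Chinese medicine. The series title places its use in ovariectomized rats, a model of postmenopausal osteoporosis, so the treated rats may share the surgery with only 1 of the pooled groups. The labels give no surgery for the treated rats, and no dose, duration, age or sham operation for any group, and they do not say that each library came from its own animal. The p-values therefore measure the spread between these samples. The question asked here is which genes set treated femora apart from both kinds of untreated femur.

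A femur holds mineralised bone, red marrow, cartilage, fat, periosteum and adhering muscle. Red marrow makes erythrocytes under the transcription factors Gata1, Klf1 and Tal1, which switch on the genes of haem synthesis, globin and the membrane skeleton. The immediate early genes Fos, Fosb, Jun and Egr1 encode transcription factors that are transcribed within minutes of a growth factor, mechanical load, neural or stress signal. Fos and Jun proteins pair as AP-1, which in bone takes part in both osteoblast and osteoclast differentiation. The periosteum is the fibrous sheath of bone. Its cells and those of tendon secrete periostin, small proteoglycans, thrombospondins and collagen VI, which organise collagen fibres.

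The promoters of 4 genes and of Egr1 were looked up for a motif, and Egr1 gave no match to show. The letters in front of the 4 genes that held a match are shown here. Each is the 120 bases around a motif match upstream of the RefSeq start site (assembly GRCr8, on the gene's strand, 5′ to 3′), with the matched letters in capitals. Lgals5 encodes a galectin of rat erythrocytes and reticulocytes, Trim10 a protein of terminal erythroid differentiation and Alas2 the first enzyme of erythroid haem synthesis. Ppp1r15a encodes GADD34, the phosphatase subunit that restores translation after stress, and was chosen after its values were seen. The match lies 130 bases before the start in Lgals5, 135 in Trim10, 136 in Alas2 and 66 in Ppp1r15a.
Lgals5, chr10:64355208-64355327, minus strand: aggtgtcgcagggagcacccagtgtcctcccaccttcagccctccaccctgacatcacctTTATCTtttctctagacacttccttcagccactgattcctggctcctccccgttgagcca
Trim10, chr20:1703545-1703664, minus strand: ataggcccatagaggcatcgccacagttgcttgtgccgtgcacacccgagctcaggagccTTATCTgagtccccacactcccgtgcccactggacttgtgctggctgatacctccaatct
Alas2, chrX:22895254-22895373, plus strand: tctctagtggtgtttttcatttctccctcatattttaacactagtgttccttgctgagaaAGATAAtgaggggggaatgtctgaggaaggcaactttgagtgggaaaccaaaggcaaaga
Ppp1r15a, chr1:105139603-105139722, minus strand: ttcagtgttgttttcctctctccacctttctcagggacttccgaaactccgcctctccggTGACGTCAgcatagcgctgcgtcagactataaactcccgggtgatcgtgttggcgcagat

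The first motif was AGATAA, the core letters of a GATA factor site, searched on both strands, so TTATCT is the same motif read from the other strand. Among the erythroid list with Lgals5, 20 of 27 symbols had a promoter entry, and 7 of those 20 (35%) held it in the 250 bases before the start: Alas2, Epor, Fech, Lgals5, Rhd, Sptb and Trim10. Of all 33469 promoters in the same RefSeq table, 3447 (10.3%) held it. The second motif, TGACGTCA, is the cyclic AMP response element, a palindrome, and does not contain the first. Of 19 matched promoters among 27 symbols of the immediate early list with Ppp1r15a, 6 (31.6%) held it, against 1.59% of all promoters. The 6 were Btg2, Dusp1, Ier2, Jund, Maff and Ppp1r15a. Fos and Jun, described below, had no promoter entry and so were not searched. Fosb, Egr1 and Junb, also described below, were not among the 6, and not every other symbol had a promoter entry. The other motif, the E-box CACGTG bound by clock factors, was in 4 of 14 matched promoters of the circadian list (28.6%, namely Bhlhe40, Bhlhe41, Ciart and Tef) and in 5.59% of all promoters. It was also in 4 of the 19 immediate early promoters (21.1%: Dusp1, Gadd45b, Klf6 and Maff). Also searched were CCACACCC, the letters of a Klf1 site, in 1 of the 20 erythroid promoters (5%, all promoters 2.84%), and the AP-1 letters TGANTCA, in 0 of the 19 immediate early promoters (all promoters 6.34%). These are matches of letters and not measurements of binding.

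The libraries held 54992823 to 66531156 counts. Of 32623 gene rows, 13886 had a mean of at least 1 FPKM (fragments per kilobase of gene, scaled to library depth) and were tested with edgeR's quasi-likelihood test. No gene passed a Benjamini-Hochberg adjusted p under 0.05 (0 of 13886, 0%; smallest adjusted p = 0.411). Limma called 0 as well (smallest adjusted p = 0.238), and DESeq2 called 86 of the 13859 genes it adjusted, 15 higher (0.108%) and 71 lower (0.512%). At an unadjusted edgeR p under 0.05, 471 genes were higher (3.39%) and 592 lower (4.26%), together 1063 where 694.3 are expected. In simulated data the step recovered 63% of 2-fold changes and 93% of 4-fold changes at these library numbers. The simulated counts were independent, with changes placed only in genes above a minimum mean count. No simulated library stood apart in a gene group, so these shares do not say how many real changes were missed.

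Markers of marrow, bone, cartilage, fat, periosteum and muscle such as Gata1, Mpo, Bglap, Acp5, Col2a1, Adipoq, Postn and Ckm had counts in every library. Some other list members did not, for example the neutrophil gene Ltf (0 to 19 counts) and the cartilage gene Matn1 (0 to 28). Few counts were found for the calcitonin receptor Calcr (12 to 149), the cartilage factor Sox9 (65 to 337) and the tendon gene Tnmd (21 to 566). In all, 3 untreated libraries stood apart in 1 gene group each. Control replicate 2 was high in haemoglobin, ovariectomized replicate 1 in interferon response genes and ovariectomized replicate 3 in slow muscle genes.

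Levels are in CPM, a gene's counts relative to the total of its library after TMM scaling, which corrects for differences in library make-up. On this scale all 3 treated libraries lay above all 6 untreated ones for 262 genes (1.89% of those tested) and below them for 350 (2.52%). This split depended on the scaling. Without TMM, 704 genes lay above and 136 below, and in the deposited FPKM 701 and 136. The share lying below was 57.2% with TMM, 16.2% without it and 16.3% in FPKM, while the median log2 difference of all genes moved from -0.0071 to 0.057 without TMM. Directions of gene groups are therefore read against that shift, and genes whose separation was lost without TMM are named as such.

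Genes of red cell formation were lower in the treated femora. All 25 tested members of the erythroid list had estimates below 0, where 51.9% of all genes did, with a median log2 fold change of -0.39 against -0.0071 for all genes. All 25 were also below both control and ovariectomized groups taken singly, against 36.1% of all genes, with medians of -0.42 and -0.31. The treated libraries did not overlap the untreated ones for 11 members, all lower, against 2.52% of all genes. Of the 25, 19 were lower at an unadjusted edgeR p under 0.05, against 4.26% of all genes. None passed the adjusted threshold in edgeR, and 1, Trim10, passed in DESeq2. In whole-tissue RNA, fewer cells of a type and less RNA per cell cannot be told apart.

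Gata1, the master transcription factor of the erythroid line (chromosome X, 15273933 to 15281759 in the deposited coordinates, of a genome build not named in the labels or headers), had 47.4, 50.2 and 47.4 CPM in the treated libraries. The untreated libraries ran from 55.3 through a median of 59.6 to 73.2 CPM. All 3 treated values were thus below the lowest untreated one, with a log2 fold change of -0.34 ± 0.09 (SE; edgeR adjusted p = 0.532). The 2 factors that act with it, Klf1 and Tal1, were at -0.42 ± 0.11 and -0.35 ± 0.10, also without overlap.

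Haem synthesis genes lay on the same side. Alas2 had 600 to 738 CPM in treated libraries and 771 to 1273 CPM in untreated ones, a log2 fold change of -0.48 ± 0.17. Uros, the uroporphyrinogen synthase of the same pathway, had 45.6, 50.1 and 47.5 CPM against 51.7 to 78.7 CPM (median 64.2), at -0.44 ± 0.12. Fech, which inserts the iron, was at -0.41 ± 0.16. Slc25a37, the mitochondrial iron importer mitoferrin, was at -0.46 ± 0.15. Nearer to 0 were Ppox, an enzyme of the same pathway (-0.19 ± 0.12), and Slc25a38, a mitochondrial glycine carrier (-0.12 ± 0.08).

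Of the red cell membrane and its skeleton, Epb42 (protein 4.2) had 224, 278 and 258 CPM in treated libraries. Untreated libraries ran from 329 through 342 to 499 CPM, so that the groups did not overlap (-0.53 ± 0.14). The anion exchanger Slc4a1 was at -0.28 ± 0.23 with overlapping libraries. Trim10 had 49.8, 66.9 and 54.5 CPM against 68.7 to 105 CPM (median 80.5), a log2 fold change of -0.55 ± 0.14 with a DESeq2 adjusted p of 0.0476 and an edgeR adjusted p of 0.532. Epor, the receptor for erythropoietin, had the estimate nearest to 0 in the list, at -0.075 ± 0.13.

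Lgals5, the red cell galectin whose promoter letters were printed first, was not a member of the list and was named by its p-value. Treated libraries had 301, 182 and 278 CPM. The 3 control libraries had 686, 902 and 574 CPM and the 3 ovariectomized libraries 458, 630 and 603 CPM. The highest treated value lay below the lowest untreated one, with a log2 fold change of -1.34 ± 0.23 (edgeR adjusted p = 0.411, DESeq2 adjusted p = 2.16e-06). Against the groups taken singly it was at -1.51 and -1.15.

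Haemoglobin genes took 7.61% ± 1.05 of all counts in treated libraries (SD, n = 3; 6.89% to 8.82%) and 10.8% ± 2.85 in untreated ones (n = 6; 8.41% to 16.2%). The 2-sided exact permutation p was 0.0714, where 0.0238 is the smallest that 84 splits allow. All 7 tested haemoglobin genes had lower estimates (median -0.39). Hba-a1 had 32730, 36390 and 29610 CPM against 37410 to 65700 CPM, and Hba-a2 12300, 16010 and 12800 CPM against 16480 to 31490 CPM. Hba-a2 lost its separation without TMM, where 1 of the 7 haemoglobin genes stayed separated. These alpha-globin genes are near-identical copies, so how reads were divided between them is uncertain.

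Without TMM all 25 erythroid members stayed lower (median -0.32). There 5 still did not overlap (136 of 13886 genes lay below on that scale), namely Gata1, Klf1, Tal1, Epb42 and Alas2. Trim10, Uros, Slc25a37, Fech and Ermap were among those that overlapped. The summed level of the list overlapped, at 8982 to 10860 CPM in treated and 10740 to 17140 CPM in untreated libraries. Control replicate 2 was at the top. Without that library the list's median was -0.30. Car2, carbonic anhydrase II, an enzyme abundant in red cells as well as osteoclasts, had 1106, 1367 and 1264 CPM against 1515 to 2250 CPM (-0.47 ± 0.14).

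Further genes of red cell biology stood among the 71 that DESeq2 called lower, of which 55 belonged to no list. They are named after their values were seen. Slc6a9, the glycine transporter that feeds haem synthesis, was at -0.44 ± 0.08, with 77.5 to 83.9 CPM against 101.7 to 126 CPM. Add2, the beta adducin of the membrane skeleton, was at -0.45 ± 0.11. Foxo3, a transcription factor of erythroid maturation and oxidative defence, was at -0.32 ± 0.06, with 86.8 to 91.8 CPM against 100.8 to 116.5 CPM. None of the 3 overlapped, with or without TMM. Their edgeR adjusted p-values were 0.411, 0.532 and 0.417.

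**Figure D1:**
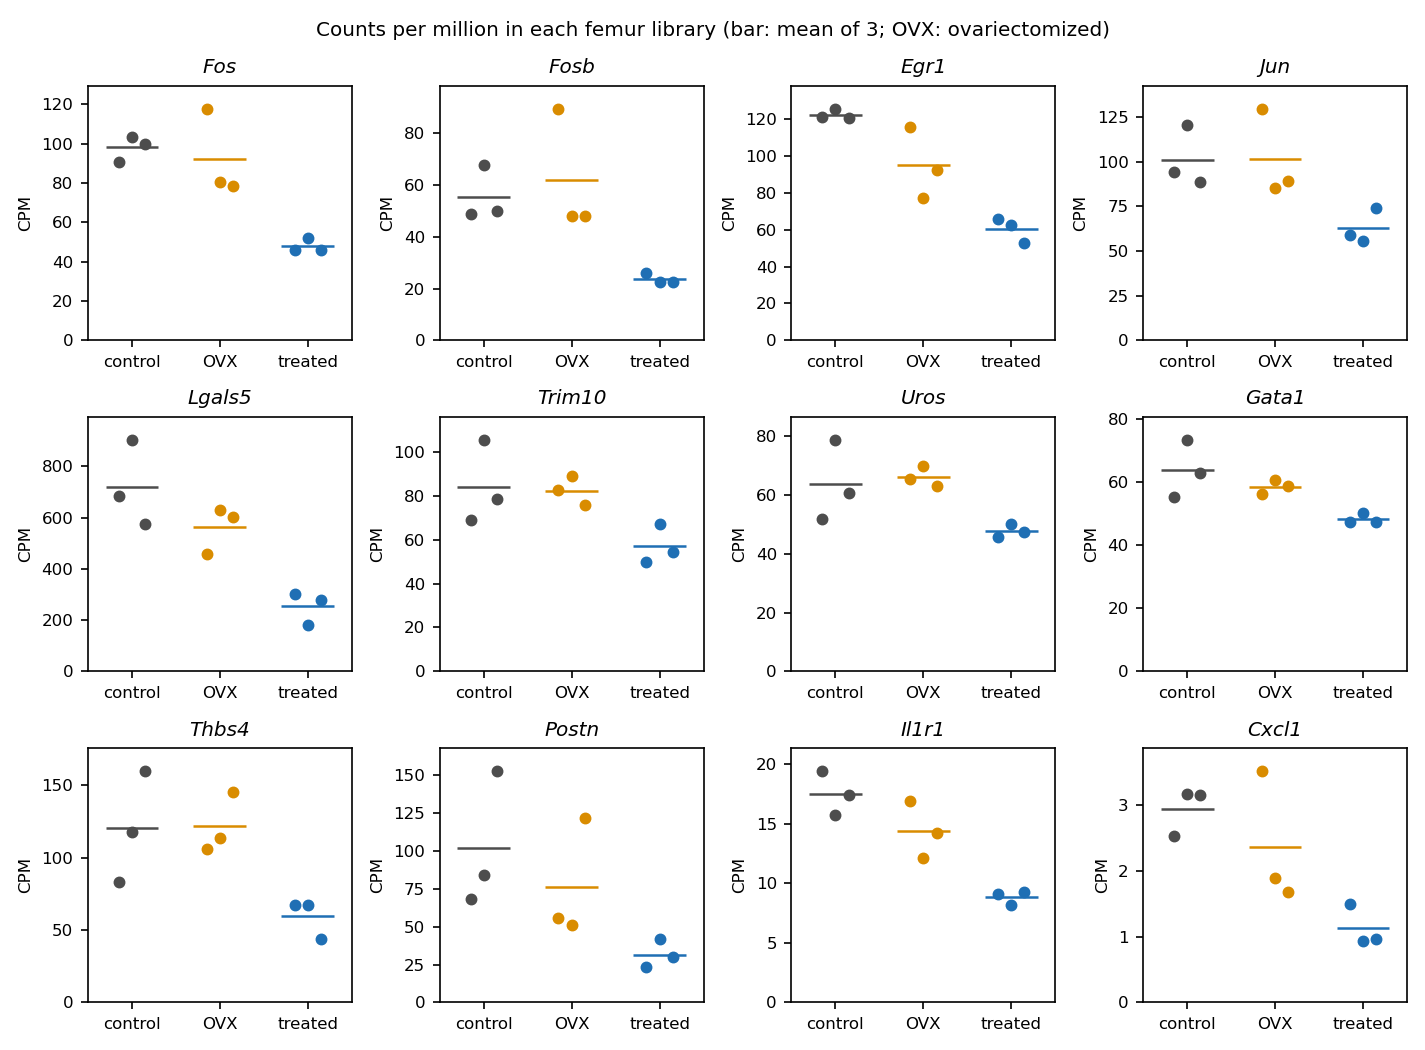
CPM (TMM-scaled) of 12 genes in each of the 9 femur libraries, with a bar at the mean of each group of 3 (control, ovariectomized or OVX, treated). The 12 genes were picked among those already seen to lie lower without overlap, and no higher gene is drawn. In every panel the 3 treated points therefore lie below all 6 untreated points, for example Fos at 45.7 to 52.0 against 78.3 to 117.5 CPM. Trim10 and Uros overlapped without TMM.

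Immediate early genes were another group with lower values in treated femora, and the gene with the smallest p among those named was one of them. Of 22 tested members 19 had estimates below 0 (background 51.9%), with a median log2 fold change of -0.19. Treated and untreated libraries did not overlap for 5 of the 22, all lower, with TMM (2.52% of all genes) and without it (136 of 13886 genes). DESeq2 called 4 of the list lower, Fos, Fosb, Egr1 and Jun (0.512% of all genes), and edgeR 0. The summed level of the list was 1071 to 1097 CPM in treated libraries and 1251 to 1570 CPM in untreated ones.

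Fos (chromosome 6, 109300433 to 109303299) had 46.0, 52.0 and 45.7 CPM in treated libraries. Controls ranged from 90.8 to 103.5 CPM, and ovariectomized libraries 117.5, 80.6 and 78.3 CPM. Every untreated value exceeded every treated one, at a log2 fold change of -0.99 ± 0.13 (edgeR adjusted p = 0.411; DESeq2 adjusted p = 9.39e-09). The estimates against control and ovariectomized libraries were close, -1.03 ± 0.15 and -0.94 ± 0.15.

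Fosb, its paralog, had 26.2, 22.6 and 22.4 CPM against 47.9 to 89.3 CPM (median 49.4), at -1.31 ± 0.22. Egr1, a zinc finger factor induced by growth factors and load, had 65.7, 62.8 and 52.7 CPM against 77.0 to 125 CPM (median 118), at -0.85 ± 0.16. Jun, the AP-1 partner of Fos, had 58.9, 55.9 and 74.1 CPM against 85.1 to 129.5 CPM (median 91.8), at -0.68 ± 0.16. The fifth member without overlap was Junb, at -0.51 ± 0.14 with 44.9 to 60.6 against 63.8 to 95.7 CPM. Their edgeR adjusted p-values ran from 0.411 to 0.532.

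The rest of the list was less uniform. Atf3, a stress-induced factor, had a large estimate of -1.11 ± 0.36 with overlapping libraries, -0.57 against control and -1.50 against ovariectomized libraries. Nr4a1 and Dusp1, an orphan nuclear receptor and a MAP kinase phosphatase, were at -0.50 ± 0.16 and -0.50 ± 0.24. Klf4, Klf6, Ier2, Ier5, Btg2 and Gadd45b lay between -0.16 and -0.037. Fosl2, Ier3 and Csrnp1 were above 0, at 0.13 ± 0.16, 0.046 ± 0.18 and 0.39 ± 0.42. Fosl1, Egr2, Nr4a2 and Nr4a3 were below the filter and not tested.

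Ppp1r15a, the stress-response gene whose promoter letters were printed with those of Lgals5, had lower values as well. It had 73.2 to 89.5 CPM against 101.5 to 126 CPM (-0.48 ± 0.08, DESeq2 adjusted p = 0.000423, edgeR adjusted p = 0.411), and it kept its separation without TMM.

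Heat shock chaperones, which fold proteins under stress, had estimates below 0 in 17 of 17 cases, with a median of -0.23. On the scale without TMM, 15 of 17 were lower, with a median of -0.17. Of the 17, 12 were below both untreated groups taken singly (36.1% of all genes). The lowest pooled estimates changed side. Cryab (-1.20 ± 0.95) was at 0.35 against control and -1.9 against ovariectomized libraries, and Hspb8 (-0.98 ± 0.73) at 0.21 and -1.62. Hsph1 had 58.5, 71.4 and 70.5 CPM against 84.2 to 140 CPM (-0.55 ± 0.16), and Hspa5, the chaperone of the endoplasmic reticulum, 398.6, 365.5 and 398.1 CPM against 399.3 to 525.5 CPM (-0.24 ± 0.10). Those 2 of 17 were the members without overlap (2.52% of all genes), and Hspa5 overlapped without TMM. Hspa8 was at -0.56 ± 0.16 and Hspa1b at -0.89 ± 0.35, both overlapping. Hspa1b differed by -1.31 from ovariectomized and by -0.29 from control libraries, and it has near-identical copies. None passed in edgeR or DESeq2.

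Of 14 clock genes 10 had lower estimates, with a median of -0.30. Dbp, a transcription factor driven by the clock, had 16.4, 15.6 and 13.9 CPM against 20.1 to 33.1 CPM (median 22.7), at -0.70 ± 0.17 (edgeR adjusted p = 0.532, DESeq2 adjusted p = 0.0298). Its groups did not overlap under either scaling. The nuclear receptor Nr1d2 had 20.5, 21.4 and 20.9 CPM against 22.1 to 33.0 CPM (-0.35 ± 0.13), a separation lost without TMM. Nr1d1 and Ciart, both repressors within the clock, were at -1.07 ± 0.35 and -0.67 ± 0.21 with overlap. No label gives the time at which femora were taken, so time of day and treatment cannot be told apart.

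Glucocorticoid-responsive genes were lower in 9 of 13 cases (median -0.19). Without treated replicate 3 the median was -0.31, with 11 of 13 lower. Fkbp5, a co-chaperone of the glucocorticoid receptor, had 121.7, 124 and 127 CPM against 131 to 146 CPM. That is a small difference with little spread, -0.19 ± 0.05, which passed in DESeq2 (adjusted p = 0.0413) and not in edgeR (adjusted p = 0.532). It lost its separation without TMM, as did the metallothionein Mt2A (-0.60 ± 0.20). Zbtb16 and Klf9, transcription factors induced by the receptor, were at -1.08 ± 0.38 and -0.65 ± 0.22 with overlap.

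**Figure D2:**
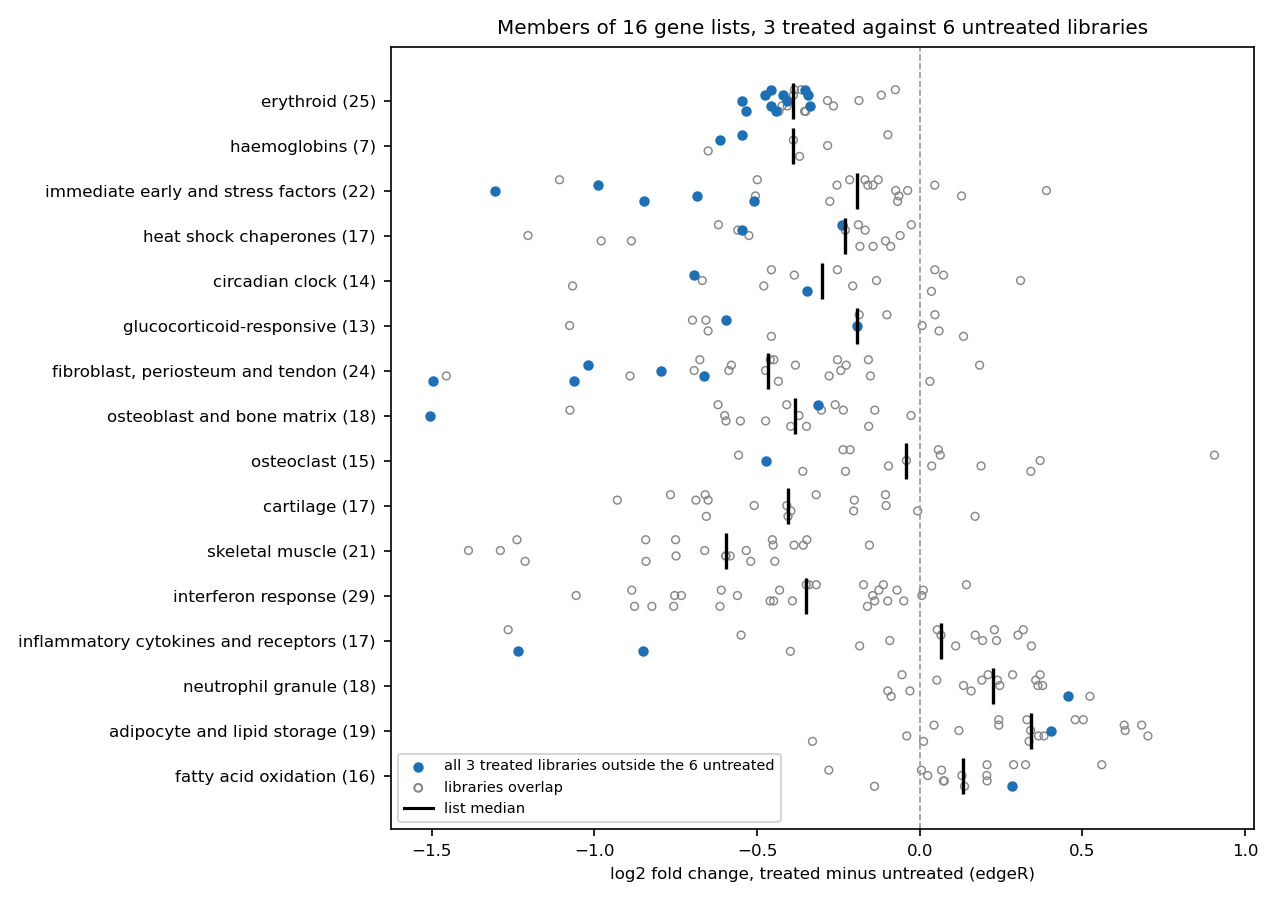
Log2 fold change (treated minus untreated, edgeR) of each tested member of 16 gene lists, with list sizes in brackets, filled points for genes whose 3 treated libraries lie outside the 6 untreated ones and a bar at the list's median. All 25 erythroid and all 17 heat shock points lie below 0, while the adipocyte, fatty acid oxidation and neutrophil medians lie above it, at 0.34, 0.13 and 0.22.

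Matrix genes of fibroblasts, periosteum and tendon were likewise lower in treated femora. Of 24 tested members 22 had lower estimates, with a median of -0.47, and 18 were below both untreated groups singly (background 36.1%). The groups did not overlap for 5 members, all lower, with TMM (2.52% of all genes) and without it (136 of 13886 genes). DESeq2 called the same 5 lower (0.512% of all genes), Thbs4, Col6a1, Postn, Cilp and Fmod. EdgeR called 0. Medians against control and ovariectomized libraries were -0.53 and -0.41. The summed level was 1352 to 1685 CPM in treated and 1837 to 3128 CPM in untreated libraries.

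Postn encodes periostin, a matrix protein of the periosteum and of tissue under load. Its treated levels were 23.1, 41.5 and 29.9 CPM. Controls had 68.5, 84.2 and 152.5 CPM, and ovariectomized libraries 55.4, 51.1 and 121.9 CPM, so the spread among untreated libraries was large, but none reached down to a treated value (-1.50 ± 0.39; DESeq2 adjusted p = 0.00477). Thbs4, a thrombospondin of tendon and muscle attachments, had 67.5, 67.3 and 44.1 CPM against 83.2 to 159.9 CPM (median 116), at -1.02 ± 0.22. Against control and ovariectomized libraries it was at -1.01 and -1.03.

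Fmod, the collagen-binding proteoglycan fibromodulin, had 20.5 to 52.4 CPM against 63.4 to 103 CPM (-1.06 ± 0.29). Col6a1, a chain of the pericellular collagen VI, had 62.7, 64.2 and 71.8 CPM against 78.6 to 132 CPM (-0.66 ± 0.16), and its partner chain Col6a2 was at -0.43 ± 0.16. Cilp, a matrix protein of cartilage and fibrous tissue, had 12.1, 17.0 and 10.1 CPM against 17.9 to 28.7 CPM (-0.79 ± 0.21). Dcn and Lum, the abundant small proteoglycans decorin and lumican, were at -0.25 ± 0.14 and -0.46 ± 0.15 with overlap. Above 0 were Mfap5 (0.18 ± 0.39) and Col14a1 (0.032 ± 0.44).

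Other thrombospondins, chosen after their values were seen, were Thbs2 with 25.4 to 36.6 CPM against 45.5 to 113 CPM (-1.13 ± 0.28) and Thbs3 with 2.17 to 2.97 CPM against 3.21 to 7.57 CPM (-1.08 ± 0.28). Both passed in DESeq2 and neither in edgeR (adjusted p = 0.532 for each). Thbs1, a further member of the family, was at 0.049 ± 0.17. The lower matrix genes that DESeq2 called also held Col8a1 (-1.73 ± 0.52) and P3h2, a collagen prolyl hydroxylase (-0.81 ± 0.21).

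Bone-forming genes leaned the same way with far wider spread. On the list of osteoblasts and bone matrix, 18 of 18 tested genes had lower estimates, at a median of -0.38. The median was -0.60 against control and -0.13 against ovariectomized libraries. Tnn, tenascin W, a matrix protein of osteogenic periosteum, had 13.2, 14.6 and 7.02 CPM against 15.9 to 55.4 CPM (-1.51 ± 0.43, DESeq2 adjusted p = 0.0245, edgeR adjusted p = 0.532). Enpp1, which makes the mineralisation inhibitor pyrophosphate, was at -0.31 ± 0.11 and overlapped without TMM. Those 2 of 18 were the members without overlap (2.52% of all genes).

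Core genes of bone turnover overlapped between the groups. Runx2, the osteoblast master regulator, had 53.2, 60.4 and 54.7 CPM against 44.4 to 80.4 CPM, a log2 fold change of -0.14 ± 0.17 (edgeR adjusted p = 0.865). Bglap, osteocalcin, had 165, 373 and 76.5 CPM against 64.6 to 437 CPM (-0.23 ± 0.61), so treated libraries alone spanned most of the untreated range. Ibsp, bone sialoprotein, was at -1.08 ± 0.50 and Col1a1 at -0.47 ± 0.58. Treated replicate 2 was the highest of the 3 for Bglap, and the list's median was -0.85 without it and -0.22 without treated replicate 3. All 9 tested osteocyte genes were lower (median -0.30) with 0 separated.

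Osteoclast genes showed no common direction, with 8 of 15 lower and a median of -0.041. Acp5, tartrate-resistant acid phosphatase, had 138, 338 and 191 CPM against 139 to 436 CPM (-0.21 ± 0.38). Ctsk, the collagen-degrading cathepsin K, had 186, 454 and 319 CPM against 198 to 592.5 CPM (-0.23 ± 0.41). Tnfrsf11b, osteoprotegerin, the decoy receptor for the osteoclast factor RANKL, was at -0.53 ± 0.50. The signs of Bglap, Acp5 and Ctsk turned when single libraries were left out. Too low to be tested were Tnfsf11, which encodes RANKL (at most 87 counts in a library), and the oestrogen receptor gene Esr1 (at most 233). Of 6 tested steroid and bone-acting hormone receptors 5 had higher estimates (median 0.088). The vitamin D receptor gene Vdr was the lower one, at -0.92 ± 0.33 with overlap, and was named after its values were seen.

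**Figure D3:**
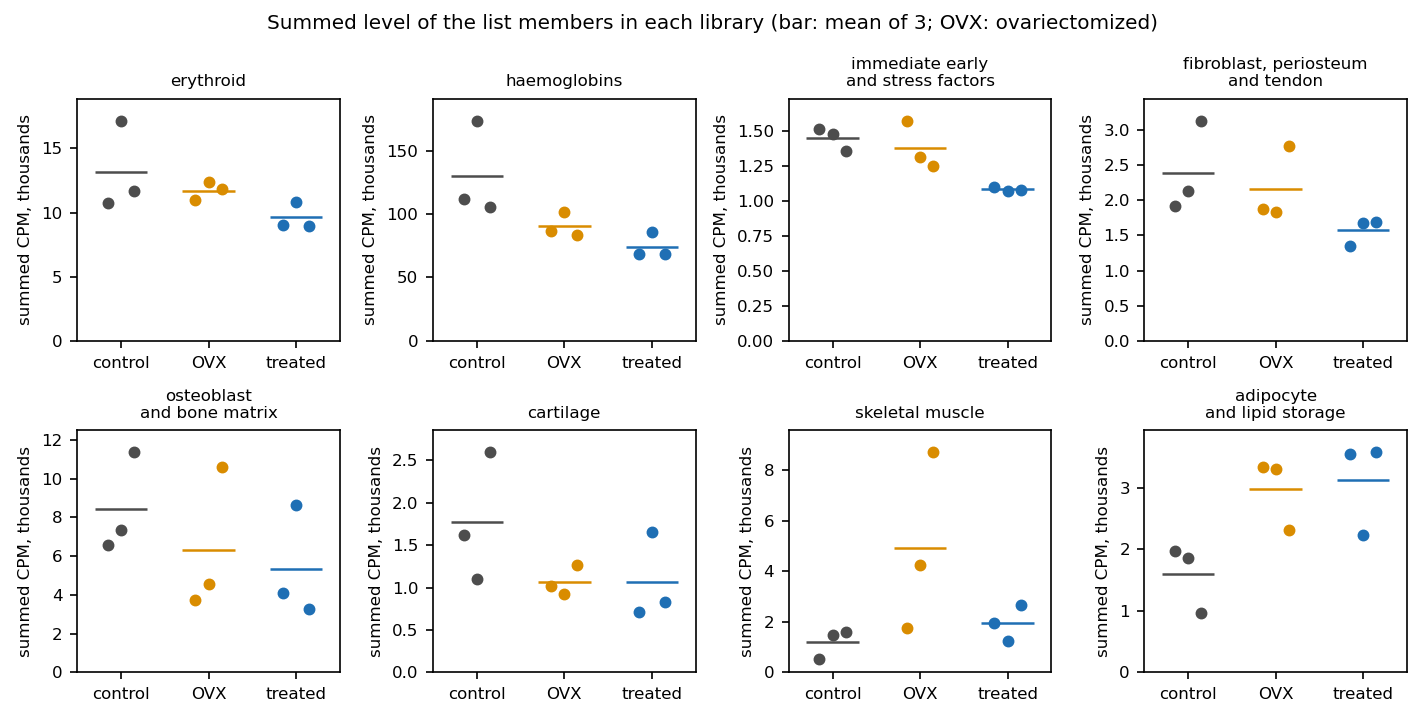
Summed CPM (the axis counts in units of 1000 CPM, TMM-scaled) of the members of 8 gene lists in each library, with a bar at the mean of each group of 3. Treated libraries sit together and low for immediate early and fibroblast genes. For erythroid sums (8982 to 10860 against 10740 to 17140 CPM) and haemoglobin sums (68270 to 85620 against 83210 to 173400 CPM) they overlap the untreated libraries. They also overlap them for osteoblast, cartilage and muscle sums, and for fat lie above the controls and overlap the ovariectomized libraries.

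For some gene groups, among them muscle, cartilage, fat and interferon response, the medians against the 2 untreated groups differed in sign, which the pooled value does not show. Skeletal muscle genes had lower pooled estimates in 21 of 21 cases (median -0.60), but the median was 0.57 against control and -1.23 against ovariectomized libraries, and 0 members were on the same side of both. Pvalb, a calcium buffer of fast fibres, had 15.3, 13.0 and 17.7 CPM in treated libraries, 9.08, 9.79 and 24.0 in controls and 18.4, 33.1 and 59.98 in ovariectomized ones. The treated values overlapped those of controls and lay below all 3 ovariectomized ones. Without ovariectomized replicate 3 the pooled median was -0.013.

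Cartilage genes were lower in 16 of 17 cases (median -0.40), with -0.98 against control and 0.31 against ovariectomized libraries. Col2a1, the main cartilage collagen, had 82.1, 351 and 70.0 CPM against 121 to 847 CPM (-0.93 ± 0.77). Control replicate 3 held the highest value, and without it the list's median was 0.036. Comp, a matrix protein shared by cartilage and tendon, had 79.2, 86.2 and 61.3 CPM against 80.0 to 146 CPM (-0.66 ± 0.19). It was lower than both groups singly, at -0.54 and -0.77.

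Adipocyte genes were higher in 17 of 19 cases, at a median of 0.34. The median was 0.98 against control and -0.060 against ovariectomized libraries, and 7 members were above both (background 35%). Cebpa, a transcription factor of fat cells and of granulocytes, had 128.9, 114.7 and 115.2 CPM against 68.4 to 114.5 CPM (0.40 ± 0.17). It was the only 1 of 19 without overlap (1.89% of all genes lay above), by a narrow margin. Separated members numbered 0 with median-of-ratios scaling or no filter on FPKM, and 1 without TMM. Adipoq, adiponectin, had 348, 224 and 383 CPM, against 36.8 to 185 CPM in controls and 176 to 350.0 CPM in ovariectomized libraries. Treated and ovariectomized libraries overlapped for it, while every treated value was above the controls. Without control replicate 3 the list's median was 0.16.

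Interferon response genes were lower in 26 of 29 cases (median -0.35), which rested on 1 library. Irf7 had 427.5 CPM in ovariectomized replicate 1 and 65.0 to 132 CPM in the other 8. The median was 0.10 against control and -0.64 against ovariectomized libraries, and the pooled median was 0.23 without ovariectomized replicate 1. Rsad2, the antiviral enzyme viperin, had estimates of -0.46 against both untreated groups, with 358, 467 and 367 CPM against 433 to 718 CPM.

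**Figure D4:**
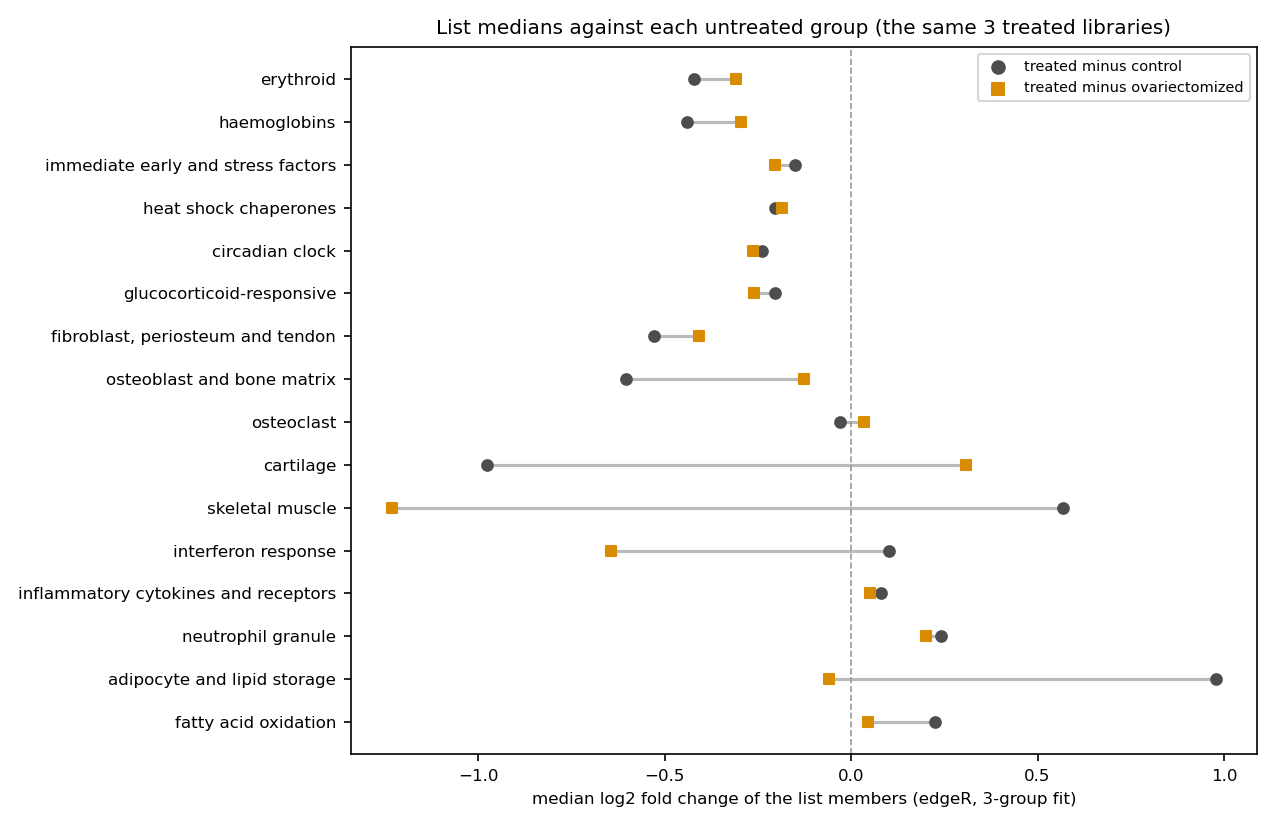
Median log2 fold change of the members of 16 gene lists for the same 3 treated libraries against control (circles) and against ovariectomized libraries (squares), from the 3-group edgeR fit. Erythroid, immediate early, heat shock, clock and fibroblast lists lie below 0 against both references, while muscle (0.57 and -1.23), cartilage (-0.98 and 0.31), interferon (0.10 and -0.64) and fat (0.98 and -0.060) change side.

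Groups with higher estimates were fewer. Of 18 neutrophil granule genes 14 had higher estimates (median 0.22), and 14 were above both untreated groups singly (background 35%). Mmp8, the neutrophil collagenase, had 2152, 1584 and 1670 CPM against 1126 to 1561 CPM (0.46 ± 0.13, edgeR adjusted p = 0.532). Mmp9, a gelatinase of neutrophils and osteoclasts, had 848, 715 and 640 CPM against 470 to 711 CPM (0.37 ± 0.13), and S100a8, a calcium-binding alarmin, was at 0.36 ± 0.17. Treated replicate 1 was the highest of all 9 for each of these 3 genes, and without it the list's median was 0.023. Summed levels overlapped, 36980 to 57750 CPM in treated and 32020 to 56270 CPM in untreated libraries.

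Fatty acid oxidation genes were higher in 14 of 16 cases by a small median of 0.13. Cpt1a, which admits fatty acids to mitochondria, was at 0.33 ± 0.16, and Hadh, a dehydrogenase of the same pathway, at 0.29 ± 0.15.

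Inflammatory cytokines and receptors had no common direction, with 10 of 17 higher and a median of 0.066, but 2 of the 17 were separated on the lower side (2.52% of all genes). Il1r1, the signalling receptor for interleukin 1, had 9.06, 8.21 and 9.29 CPM against 12.1 to 19.4 CPM (median 16.3). The treated values were close together and all below the untreated ones, at -0.85 ± 0.15 (edgeR adjusted p = 0.411, DESeq2 adjusted p = 0.000153). Cxcl1, a neutrophil-attracting chemokine, had 1.49, 0.926 and 0.965 CPM against 1.68 to 3.51 CPM (-1.23 ± 0.30, DESeq2 adjusted p = 0.0321). Both estimates held their side against each untreated group, and both kept their separation without TMM. The related Cxcl2 was at -1.26 ± 0.55 with overlap.

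Of single genes named by p-value on the lower side, Banp, a chromatin-binding regulator of p53, had 15.1, 15.4 and 16.8 CPM against 20.0 to 27.8 CPM (-0.67 ± 0.11). Acer2, a Golgi ceramidase, was at -0.74 ± 0.13, and the nucleoside transporter Slc29a2 at -1.001 ± 0.20 with 7.43, 7.14 and 10.1 CPM against 13.3 to 22.7 CPM. Pdcd5, a gene linked to cell death, was at -0.80 ± 0.16. Rpl38 was at -1.53 ± 0.32, in a row of ribosomal protein sequence on chromosome 8 (63119395 to 63119607), a family with many near-identical copies, so this value is uncertain. All 5 passed in DESeq2 and none in edgeR.

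The higher genes named by the rule were mostly of low level. Pcp4, a calmodulin regulator, had 3.40, 2.59 and 3.04 CPM against 1.24 to 1.96 CPM (0.82 ± 0.19), and Slc16a12, a creatine transporter, 6.54, 5.70 and 5.68 CPM against 2.84 to 4.38 CPM (0.67 ± 0.16). These 2 passed in DESeq2 (adjusted p = 0.0395 and 0.0255). F2rl2, a thrombin receptor subunit of platelets, had 65.4, 45.1 and 48.4 CPM against 28.3 to 44.2 CPM (0.64 ± 0.17). Htr2a, a serotonin receptor, was at 0.60 ± 0.15, and Gbp6, an interferon-induced GTPase, at 1.07 ± 0.33.

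Ankef1 had the largest estimate of these 10 higher genes, 1.97 ± 0.63, with 34.3, 14.6 and 44.5 CPM against 1.09 to 14.3 CPM, so its lowest treated value was close to the highest untreated one. Calr3, Sftpb, Lratd2 and Macroh2a2 lay between 0.62 and 0.75. Above these in level were Ets1 and Gpr65, chosen after their values were seen. Ets1, a transcription factor of lymphocytes and endothelium, had 222 to 243 CPM against 183 to 210.0 CPM (0.24 ± 0.06), and Gpr65, an acid-sensing receptor of leukocytes, 11.5 to 12.6 CPM against 7.83 to 9.35 CPM (0.46 ± 0.09). DESeq2 called both (adjusted p = 0.0255 and 0.000629) and edgeR neither (0.532 and 0.437).

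Cytosolic ribosomal proteins were split 13 to 13 (median 0.00025), and oxidative phosphorylation (-0.042), endothelium (-0.0093), megakaryocyte (0.012) and macrophage lists (0.029) had 0 members separated. Counts from mitochondrial DNA took 3.87% ± 0.416 in treated and 3.83% ± 0.418 in untreated libraries (2-sided exact permutation p = 1). Cell cycle genes were lower in 25 of 27 cases by a small median of -0.10, and without TMM in 20 of 27 (median -0.036). On the TMM scale 22 of the 27 were below both groups singly (36.1% of all genes). Tyms, thymidylate synthase, was their only separated member (-0.56 ± 0.16, edgeR adjusted p = 0.532). Of the antioxidant list 9 of 17 were lower, among them Gclm, a subunit of the enzyme that starts glutathione synthesis (-0.43 ± 0.13), whose separation was lost without TMM.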

How the data were processed

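Count and FPKM values per gene for 9 libraries were deposited in 1 table, per the file headers. The authors used fastp, HISAT2 and StringTie, per the submitters' processing notes, with no versions. Genome build and counting method: not given in the sources used here. Counts were taken as unscaled reads. The FPKM values were scaled by the authors for length and depth, and every count of 0 has an FPKM of 0.0001.

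Rows with a mean of at least 1 FPKM were tested with edgeR 4.0.16 (TMM, quasi-likelihood, common biological coefficient of variation 0.271, 2.31 prior degrees of freedom, Benjamini-Hochberg over 13886 genes, threshold 0.05), with 1 term for treatment. A 3-group fit gave the differences from each untreated group. Those contrasts share the treated libraries and are not independent. SE is the absolute log2 fold change divided by the square root of edgeR's F statistic. No 2 libraries agreed within sampling noise (lowest chi-square per degree of freedom 79.6). Tested on simulated data (13886 genes, of which 100 were given 2-fold and another 100 4-fold changes), the fit made 14 false calls.

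The comparison and 44 lists (822 symbols, 710 tested, 42 with no row) were chosen with earlier results of these data known. The naming rule took, leaving out placeholder symbols, 10 higher and 10 lower genes past the threshold without overlap, and filled open places by smallest p among those separated by 1.5-fold or more. Also named were the 4 members with the smallest p in each of 16 described lists, and Runx2, Bglap, Acp5, Ctsk and Tnfrsf11b. For the 1556 symbols with several rows the row of highest mean FPKM was used. Alternatives were median-of-ratios scaling, DESeq2 1.42.0, limma 3.58.1 on log2(FPKM + 1) and log2(FPKM + 0.1), no filter or 5 FPKM, 3 groups in the fit, a robust fit, the replicate number as a block, each library left out, and FPKM or unscaled CPM for overlap. Leaving out haemoglobin rows, or 3 untreated libraries together, was chosen after seeing the data. R 4.3.3 and Python 3.11.15 were used. Promoters came from RefSeq GRCr8. Some genes that the rule names are left out here.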

Additional observations from a re-analysis of the deposited data

Results flagged for a closer look

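Of 100 levels examined in the 6 untreated libraries (named genes and summed lists), 11 had 1 library far from the other 5 by Dixon's test. Chance flags about 1 in 20 such groups, and genes of 1 list are not independent.

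Control replicate 2 stood high for red cell genes. Epb42 was at 498.6 CPM there against 329 to 361 CPM in the other 5, and Hba-a2 at 31490 CPM against 16480 to 20680 CPM. The erythroid list summed to 17140 CPM there and the haemoglobin list to 173400 CPM. The erythroid difference of the treated libraries kept its direction without this library, at a median of -0.30.

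Ovariectomized replicate 3 stood high for slow muscle genes, Tnnt1 at 242.8 CPM (other 5 up to 83.7), Tnni1 at 142.1 CPM (up to 44.5) and Myl3 at 221.9 CPM (up to 67.7). Ovariectomized replicate 1 stood high for interferon genes, Irf7 at 427.5 CPM (up to 132), Ifi44 at 57.6 CPM (up to 18.6) and the interferon list at a sum of 3774 CPM (up to 1759). The chaperone Hsph1 was at 140 CPM in control replicate 3, against 84.2 to 91.8 CPM.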

How the results depend on the processing

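EdgeR called 0 genes with median-of-ratios scaling, no filter, a filter at 5 FPKM, 3 groups in the fit, a robust fit or haemoglobin rows left out, as did limma with either pseudocount, while DESeq2 called 15 higher and 71 lower. With single libraries left out, edgeR called 0 to 1 higher and 0 to 2 lower: Cbx3 without control replicate 2, AABR07058985 without ovariectomized replicate 1, Slx4ip and LOC103690149 without treated replicate 2. Non-overlapping genes then numbered 302 to 715 higher and 399 to 896 lower, fewer samples making overlap rarer by construction. In deposited FPKM they were 701 and 136, and in CPM without TMM 704 and 136. Without control replicate 2 and ovariectomized replicates 1 and 3 together, edgeR called 1 higher and 3 lower, Fosb among them (adjusted p = 0.0498), and 827 genes each way did not overlap.

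The replicate numbers were not shown to pair the libraries, since correlations of same-numbered libraries ran from -0.13 to 0.18. With the replicate number as a block edgeR called 1 gene higher (F2rl2) and 2 lower (Cpne1 and LOC100912399).

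Of 84 named genes, 4 changed sign in 6 fits, and the cause was not tested. Isg20 was at 0.025 without the 3 libraries. With single libraries left out, Bglap ran from -0.998 to 0.16 (0.023 without ovariectomized replicate 3, 0.16 without treated replicate 3), Acp5 from -0.65 to 0.036 (0.00089 without control replicate 3, 0.036 without treated replicate 1) and Ctsk from -0.57 to 0.046 (without treated replicate 1). Of the 16 described lists, the osteoclast median was 0.014 with limma at both pseudocounts, and ran from -0.099 to 0.036 with single libraries left out. The cartilage median ran from -1.29 to 0.036 (without control replicate 3). The interferon median ran from -0.47 to 0.23 (without ovariectomized replicate 1), and was 0.17 without the 3 libraries. The erythroid, haemoglobin, immediate early, heat shock, clock, glucocorticoid, fibroblast and osteoblast medians stayed below 0 under each alternative run. Depth limits genes such as Tnfsf11, with at most 87 counts.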

Other observations

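Some rows switched between 0 and high counts from library to library. In 81 rows at least 1 library had 0 counts and another at least 500, and in 47 of them every library above 0 held at least 100 counts. Cpne1, a calcium-dependent membrane-binding protein, had 11084, 0 and 7851 counts in controls, 10495, 0 and 8451 in ovariectomized libraries and 0 in each treated library. It had the smallest adjusted p in DESeq2 (7.29e-13) although 2 untreated libraries were also at 0, and an edgeR adjusted p of 0.544. Of the 81 rows, 4 were at 0 in all 3 treated libraries, and 0 of those were above 0 in all 6 untreated ones. AABR07058985 had 801, 901 and 677 counts in treated libraries, 785 in ovariectomized replicate 1 and 0 in the other 5.

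Marrow lineages beside the red cell line were not separated as groups. T and natural killer cell genes were higher in 11 of 16 cases (median 0.09) and B lymphocyte genes lower in 11 of 17 (median -0.10). Of 13 mast cell, basophil and eosinophil genes, 11 were higher, with a median of 0.40 against control and -0.10 against ovariectomized libraries. Ccr3, the eotaxin receptor of eosinophils, had 24.8 to 30.6 CPM in treated libraries against 11.7 to 23.2 CPM in untreated ones (0.51 ± 0.19). Plasma cell genes were split, with 6 of 11 higher, 5 lower and a median of 0.022. Only 1 of the 11 was separated (1.89% of all genes lay above). It was Irf4, a transcription factor, with 63.0 to 67.2 CPM against 41.6 to 61.2 CPM (0.32 ± 0.11). The edgeR adjusted p-values of Ccr3 and Irf4 were 0.601 and 0.578.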
